A study of Mus musculus with 6 samples.

Results

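The 10 genes described here encode 7 matrix metalloproteinases (Mmp2, Mmp9, Mmp12, Mmp13, Mmp14, Mmp19 and Mmp27) and 3 tissue inhibitors of metalloproteinases (Timp1, Timp2 and Timp3). They were taken by symbol from a table of 17460 genes measured by RNA sequencing in whole mouse liver. The question was how these transcripts differ when the long noncoding RNA Blnc1 is deleted in the liver of mice with diet-induced nonalcoholic steatohepatitis (NASH), an inflamed and scarring fatty liver. Livers came from 3 control and 3 Blnc1 LKO (liver knockout) mice of the C57BL/6 strain, 9 months old, and all 6 mice had eaten a NASH diet rich in fructose, trans fats and cholesterol for 24 weeks. Per the study's methods, LKO mice carried a Cas9 transgene expressed constitutively and received by tail vein an adenovirus encoding a pair of single-guide RNAs against Blnc1. For the control livers sequenced here the sample titles say control and the columns of values are headed WT, with no virus stated. A GFP adenovirus in Cas9 mice is described for the high-fat-diet cohort of the same study. Adenovirus given this way transduces mainly hepatocytes. For this method the study reported Blnc1 lowered in fractionated hepatocytes and little changed in the non-parenchymal cell fraction. In the livers sequenced here, Blnc1 in stellate cells, macrophages and endothelial cells may therefore be intact. Chow-fed mice were not analysed here, so no value below is a response to the diet. No row of the table is named Blnc1, and its loss was therefore not measured here. The libraries held 65384969 to 89350181 reads on listed genes.

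Matrix metalloproteinases are zinc-dependent endopeptidases that cut collagens, elastin, laminins and other matrix proteins, and most are secreted as inactive proenzymes that another proteinase must open. TIMPs occupy the active site of the opened enzyme, so the balance of proteinase and inhibitor sets how much matrix is removed. In a fibrotic liver stellate cells and macrophages make most of these proteins, while hepatocytes make little of them. Transcript levels say nothing of how much of the protein was activated.

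Several MMP genes are induced through AP-1, the dimer of Jun and Fos proteins, and short promoter windows that hold an AP-1 motif are shown because Jun is among the inducers measured below. RefSeq promoter sequences (250 bases before to 50 after the start, assembly GRCm38.p6) were found for 7 of the 10 genes and for 8 promoters, since Mmp12 has a pair of starts. The motif TGANTCA, searched on both strands and identical on each, occurred in 2 of these 8 promoters, those of Mmp13 and of the second Mmp12 start, and in 7.81% of all 32851 promoters. The variant TGAGTAA, searched on both strands, occurred in the Timp1 promoter alone of the 8 and in 2.68% of all promoters. The windows below are the plus strand, which is the coding strand of all 3 genes, with the matched motif in capitals.

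Mmp13 (chr9:7272469-7272495, motif beginning 35 bases before the start): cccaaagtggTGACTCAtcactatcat

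Mmp12 (chr9:7347320-7347346, motif beginning 44 bases before the second start): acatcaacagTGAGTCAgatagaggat

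Timp1 (chrX:20870182-20870208, motif beginning 26 bases after the start): ggtgggtggaTGAGTAAtgcgtccagg

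The letters TATAAA on the gene's own strand occurred in the Mmp13 promoter, beginning 16 bases before the start, in that of the second Mmp12 start, beginning 4 bases after it, and in 8.32% of all promoters. The ETS-type motif AGGAAG, searched on both strands, occurred in 5 of the 8 promoters (Mmp12, Mmp13, Mmp14, Timp1 and Timp3), against 35.4% of all promoters. A match describes the letters in the window and is no evidence of binding.

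Per base of exon, mean levels of the inhibitors Timp2 and Timp3 stood at the top of the order and that of the gelatinase Mmp9 at the bottom. Levels in RPKM (reads per kilobase of exon per 1000000 reads on listed genes) averaged 17.4 ± 1.25 for Timp2, 16.9 ± 2.24 for Timp3 and 14.3 ± 0.644 for Mmp19 in control livers (SD, n = 3 here and for the next levels). Timp1 (11.6 ± 0.133), Mmp12 (8.12 ± 1.19), Mmp14 (7.82 ± 0.477) and Mmp2 (6.92 ± 0.308) formed the middle of the order. Mmp13 (3.09 ± 0.124), Mmp27 (1.93 ± 0.308) and Mmp9 (0.345 ± 0.0395) were the least abundant per length. Over all 6 livers, neighbours in this order overlapped except at 3 steps, from Mmp19 to Timp1, from Mmp2 to Mmp13 and from Mmp27 to Mmp9. Between 74 and 284 reads per liver lay behind the Mmp9 values and 302 to 658 behind those of Mmp13, whereas Timp3 had 7269 to 11186. Part of the exons of Timp3 (1733 bases) overlaps Syn3, part of those of Mmp12 (157 bases) overlaps Mmp1b and up to 789 bases of Mmp19 overlap an antisense gene. The library kit does not mark strand, so reads from these stretches cannot be assigned to one gene or the other.

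**Figure D1:**
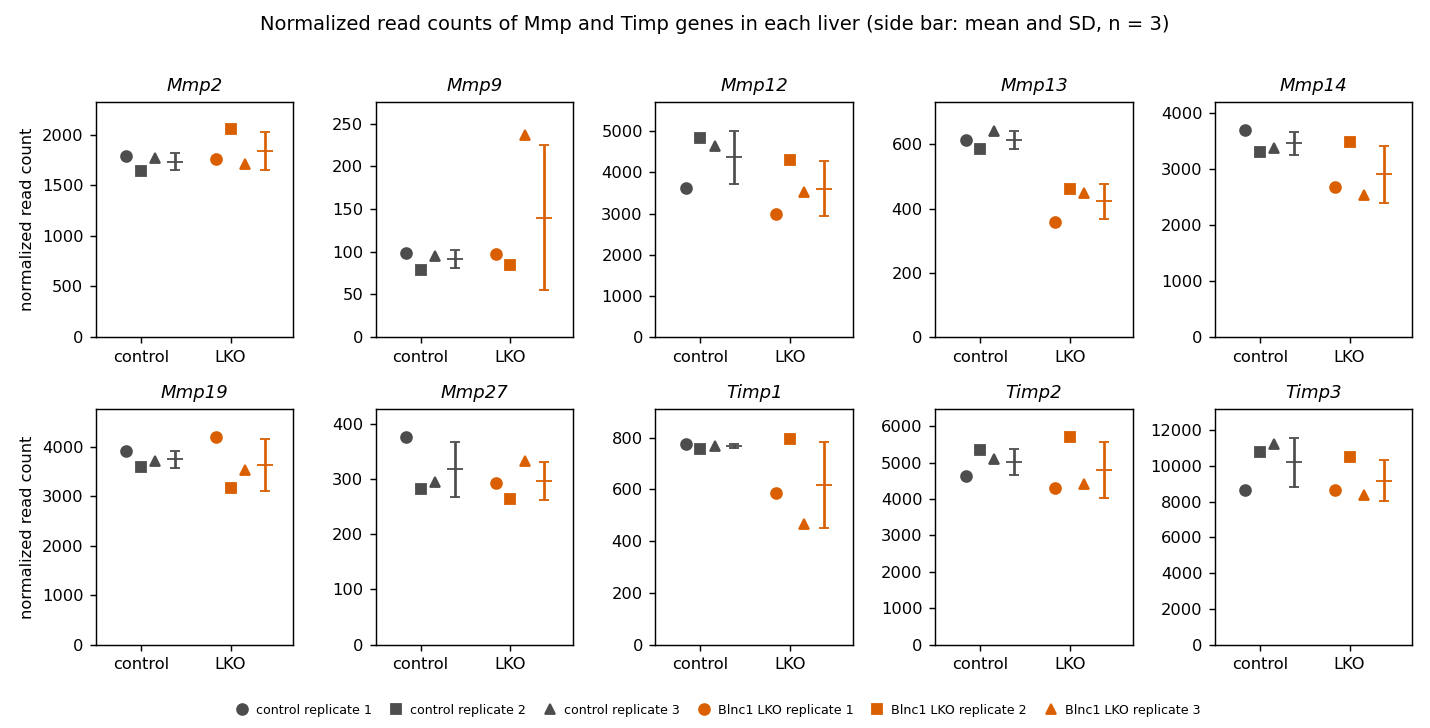
Normalized read count (vertical axes, each starting at 0) of the 10 genes in each liver, with points for single livers, grey for control and orange for Blnc1 LKO, and a side bar for the mean and SD of 3 livers. The 3 Mmp13 points of the LKO livers lie below the 3 control points, and in the other 9 panels the groups overlap.

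Across the 10 genes, mean transcript was lower in LKO livers for 8 and higher for 2, against 50.4% of the 17297 genes tested with a lower mean. No member passed limma's test at a Benjamini-Hochberg adjusted p of 0.05, which 0.00578% of all genes tested (1 gene) did, and 2 were lower at an unadjusted p under 0.05 (Mmp13 and Mmp14, against 2.74% of all genes), with none higher against 2.94%. In the lower direction limma called 0.00% of all genes. By DESeq2 on the recovered reads 1 member, Mmp13, was called lower, against 0.250% of all genes (0.538% in either direction), and by edgeR none was, against 0.0116% of all genes in either direction and 0.00578% in each. The median log2 fold change of the 10 genes was -0.12, beside -0.00099 for all genes tested. With 1 liver left out in turn, this median ran by limma from -0.11 (without control liver 3) to -0.23 (without LKO liver 2). Mmp13 was the single member whose groups did not overlap, a pattern seen in the lower direction in 5.28% of all genes.

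Mmp13, the principal interstitial collagenase of rodents, which cuts fibrillar collagen, had the lowest LKO mean relative to control of the 10 genes. Its gene lies at chr9:7272514-7283331 on the plus strand (GRCm38). Normalized read counts, meaning counts divided by the library's size factor, were 613, 585 and 640 in control livers 1 to 3 and 359, 459 and 448 in LKO livers 1 to 3. Every LKO liver was below every control liver, and LKO liver 1 was the lowest. The means were 612.8 ± 27.6 in control and 422 ± 54.7 in LKO livers (SD, n = 3), so that LKO livers held 68.9% of the control level. On the log2(value + 1) scale the fold change was -0.54 (SE 0.11, 95% interval -0.80 to -0.29), with an adjusted p of 0.548 by limma, 0.543 by edgeR and 0.00824 by DESeq2. The DESeq2 call was lost without control liver 1 (adjusted p = 0.223) or without control liver 3 (adjusted p = 0.173), and with 1 other liver left out in turn the adjusted p ranged from 0.00273 to 0.0416. In whole-liver RNA, fewer cells of a type and less RNA per cell cannot be told apart, here or for any transcript below.

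Mmp14, the membrane-type metalloproteinase that opens proMmp2 on the cell surface and also cuts collagen, was lower in LKO livers 1 and 3 only. Its normalized counts were 3697, 3304 and 3387 in the control livers and 2692, 3494 and 2547 in LKO livers. LKO liver 2 lay within the control range. The means were 3463 ± 207 and 2911 ± 510 (SD, n = 3), with a log2 fold change of -0.26 (SE 0.11, 95% interval -0.52 to -0.01) and an adjusted p of 0.870 by limma and 0.868 by DESeq2. The log2 difference was -0.40 without LKO liver 2 and -0.17 without LKO liver 3.

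Mmp2, a gelatinase that cuts denatured and basement membrane collagen, had a mean near that of the controls. Its counts were 1790, 1641 and 1771 in the control livers and 1760, 2059 and 1709 in LKO livers, where LKO liver 2 was the highest of all 6. The log2 fold change was 0.08 (SE 0.082, 95% interval -0.10 to 0.27), and limma's adjusted p was 0.973. Timp2, which inhibits metalloproteinases and, bound to Mmp14, also helps to open proMmp2, had counts of 4630, 5342 and 5096 in control and 4302, 5690 and 4402 in LKO livers. Here too LKO liver 2 exceeded every control liver while LKO livers 1 and 3 lay below all of them, and the log2 fold change was -0.08 (SE 0.11, 95% interval -0.32 to 0.17; adjusted p = 0.979 by limma). Over the 3 transcripts of this activation system the 95% intervals bound a change of the mean to between -0.52 and 0.27 on the log2 scale.

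Mmp12, the macrophage elastase, had counts of 3632, 4831 and 4632 in control and 2984, 4308 and 3532 in LKO livers. LKO livers 1 and 3 were below all controls and LKO liver 2 was within their range. The log2 fold change was -0.28 (SE 0.14, 95% interval -0.61 to 0.05), and the adjusted p was 0.908 by limma. The log2 difference was -0.42 without LKO liver 2 and -0.15 without LKO liver 1. Adgre1, which encodes the macrophage surface protein F4/80, gave 4694, 4615 and 4393 in control and 4867, 5015 and 5287 in LKO livers. Per 100 Adgre1 reads, Mmp12 gave 77.4, 105 and 105 reads in control and 61.3, 85.9 and 66.8 in LKO livers, and these groups overlapped (exact permutation test, two-sided, p = 0.2, adjusted 0.35). The summed value of 12 macrophage and Kupffer cell markers was 97438 to 103405 in the control livers and 99496 to 108042 in LKO livers. Its largest parts were Lyz2 (mean 28231 in control and 29313 in LKO livers) and Cd5l (25063 and 25457), so the sum mainly follows these. Single markers of that list went both ways, with 4 higher and 1 lower at an unadjusted p under 0.05 by limma, against 2.94% and 2.74% of all genes. The higher ones, named after their values were seen, were Vsig4 at 202% of the control mean, Timd4 at 236%, Clec4f at 136% and Adgre1 at 111%, the lower one was Gpnmb at 70.6%, and none passed the adjusted threshold by limma or DESeq2. Their part in the Mmp12 value was not tested.

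Mmp9, the gelatinase that neutrophils store in granules, was set apart by 1 liver. Its counts were 98.8, 78.8 and 94.8 in the control livers and 97.6, 84.6 and 237 in LKO livers. LKO liver 3 had more than any other liver, and LKO livers 1 and 2 lay within the control range. The log2 fold change over all livers was 0.47 (SE 0.35, 95% interval -0.33 to 1.27; adjusted p = 0.968 by limma), and without LKO liver 3 it was 0.0070.

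Neutrophil transcripts were also highest in LKO liver 3. The summed value of the 9 neutrophil markers in the table was 1172 to 1792 in the control livers and 1166, 1969 and 7515 in LKO livers 1 to 3. S100a8, a calcium-binding alarmin of myeloid cells, gave 307, 246 and 142 in control and 142, 385 and 1705 in LKO livers. Elane, neutrophil elastase, gave 17.7, 25.6 and 16.0 in control and 29.8, 26.3 and 131 in LKO livers. All 9 markers had their highest value of the 6 livers in LKO liver 3, with none at 0 in any liver, 8 had a higher mean in LKO livers, and none passed limma's test or that of DESeq2. Mmp8, the neutrophil collagenase, was also highest in LKO liver 3, with 63.4, 60.7 and 35.1 in control and 36.9, 50.7 and 111 in LKO livers. The part of these cells in the Mmp9 value of LKO liver 3 was not tested.

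**Figure D2:**
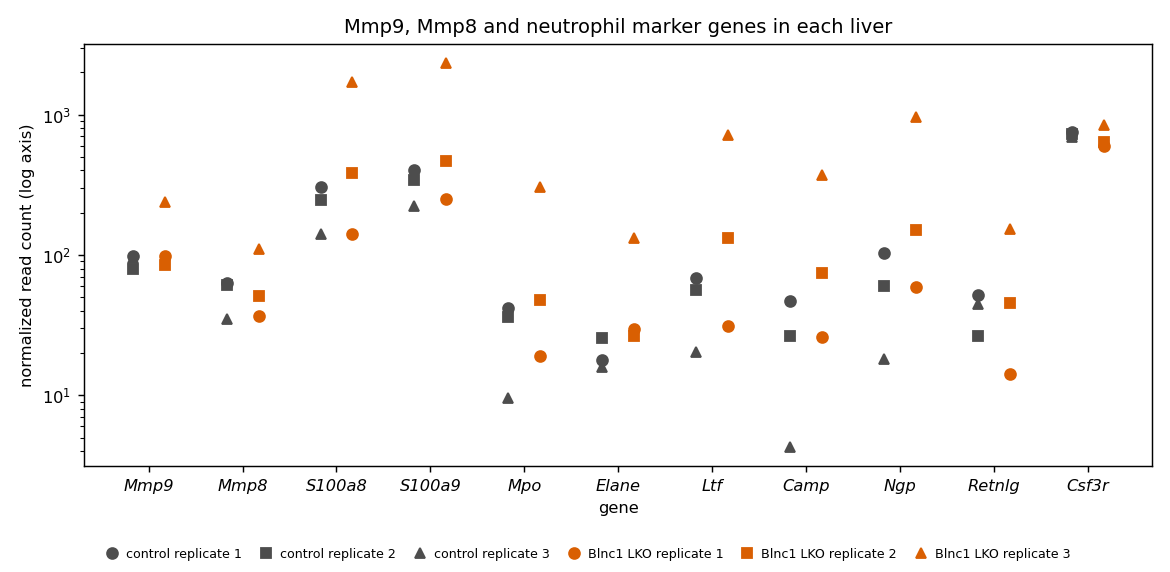
Normalized read count (log axis) of Mmp9, Mmp8 and 9 neutrophil marker genes in each liver, grey for control and orange for Blnc1 LKO, with the symbol giving the replicate. LKO liver 3 (orange triangle) is the highest point for every gene shown, at 237 for Mmp9 and 1705 for S100a8.

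Mmp19 and Mmp27 showed no ordering by group. Mmp19, a secreted enzyme that cuts basement membrane proteins, had counts of 3927, 3595 and 3719 in control and 4200, 3164 and 3534 in LKO livers, with the highest and the lowest value both among LKO livers. Its log2 fold change was -0.05 (SE 0.097, 95% interval -0.28 to 0.17; adjusted p = 0.985 by limma). Mmp27, which lies on chromosome 9 with Mmp13 and Mmp12, had counts of 375, 282 and 295 in control and 293, 264 and 332 in LKO livers, and control liver 1 was the highest. Its log2 fold change was -0.09 (SE 0.14, 95% interval -0.42 to 0.23; adjusted p = 0.980 by limma).

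Of the inhibitors, Timp1, the inducible one that rises in injured liver, had the lowest mean in LKO livers relative to control. Its counts were 775, 757 and 767 in control livers, the tightest set of the 10 genes, and 587, 795 and 465 in LKO livers. LKO liver 2 was the highest of all 6 and LKO liver 3 the lowest. The means were 766 ± 8.66 and 616 ± 167 (SD, n = 3), and the log2 fold change was -0.35 (SE 0.17, 95% interval -0.73 to 0.03; adjusted p = 0.891 by limma). The log2 difference was -0.55 without LKO liver 2 and -0.17 without LKO liver 3. Timp3, which binds the matrix and also inhibits ADAM17, had counts of 8625, 10784 and 11196 in control and 8651, 10510 and 8375 in LKO livers. The low values were control liver 1 and LKO livers 1 and 3, and the log2 fold change was -0.15 (SE 0.12, 95% interval -0.42 to 0.11; adjusted p = 0.971 by limma). The log2 difference was -0.27 without control liver 1 and -0.079 without control liver 3.

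**Figure D3:**
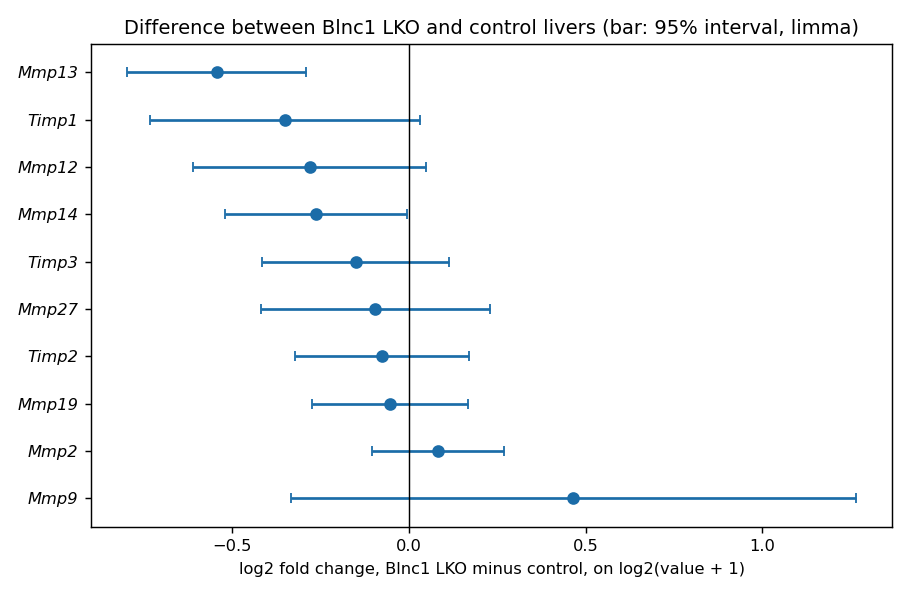
Log2 fold change (Blnc1 LKO minus control, log2(value + 1)) of the 10 genes, ordered by size, with bars for limma's 95% interval over 3 against 3 livers. The intervals of Mmp13 (-0.80 to -0.29) and Mmp14 (-0.52 to -0.01) lie below 0, the other 8 include 0, and that of Mmp9 is the widest.

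The 3 LKO livers did not share 1 pattern. As a log2 distance from the control mean, the median over the 10 genes was -0.22 in LKO liver 1 and -0.23 in LKO liver 3, with 7 and 8 genes below the control mean. In LKO liver 2 it was 0.0034, with 5 genes below and 5 above, and this liver was the highest of the LKO livers for 7 of the 10 genes. That median came from members on both sides, from Mmp13 at -0.41, Mmp27 at -0.25 and Mmp19 at -0.24 to Timp2 at 0.18 and Mmp2 at 0.25. Mmp13 was at -0.77 and -0.45 in LKO livers 1 and 3. Timp1 ranged from -0.72 in LKO liver 3 to 0.05 in LKO liver 2. Leaving out LKO liver 2, 5 members were lower at an unadjusted p under 0.05 by limma (Mmp12, Mmp13, Mmp14, Timp1 and Timp2), against 5.47% of all genes. By DESeq2 Mmp13, Mmp14 and Timp1 then passed the adjusted threshold, against 1.97% of all genes (301), the most of any fit run. With 1 other liver left out, limma gave 1 to 3 such members, against 1.75% to 3.02% of all genes, and DESeq2 called 0 to 1, against 0.104% to 0.639%. LKO liver 2 was singled out by the values of these same members, so its counts are a description and no test. The labels give no reason to set this liver aside.

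**Figure D4:**
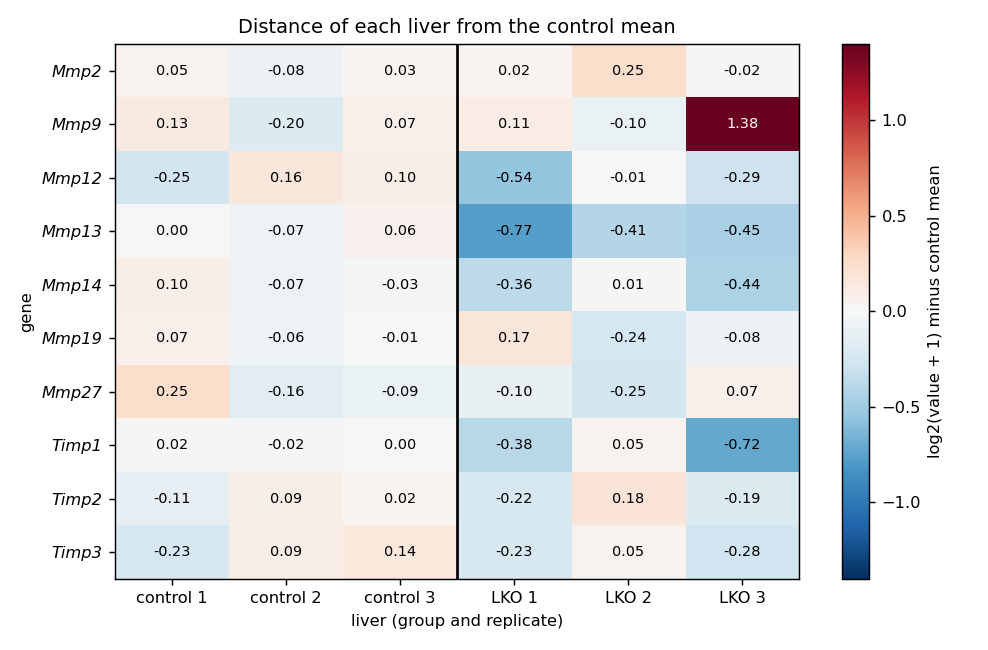
Log2 distance of each liver (columns) from the control mean for the 10 genes (rows), with blue below and red above. LKO livers 1 and 3 are blue for most genes, LKO liver 2 holds both colours, from -0.41 for Mmp13 to 0.25 for Mmp2, and the single dark red cell is Mmp9 in LKO liver 3 at 1.38.

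Proteinase and inhibitor transcripts were then set against each other within each liver. Per 100 Timp1 reads, Mmp13 gave 79.2, 77.2 and 83.5 reads in control and 61.3, 57.8 and 96.2 in LKO livers, so that LKO liver 3 had the highest and LKO livers 1 and 2 the lowest ratios. Per 100 Timp2 reads, Mmp14 gave 79.8, 61.8 and 66.5 reads in control and 62.6, 61.4 and 57.9 in LKO livers. Mmp13 per 100 reads of Col1a1, the collagen I chain that it cuts, was 3.95, 5.02 and 4.35 in control and 4.49, 4.20 and 5.27 in LKO livers. Of 7 such ratios, picked after values were seen and including that of Mmp12 to Adgre1 above, the groups overlapped in all. Their exact permutation p-values (two-sided) ran from 0.2 to 0.6, 0.35 to 0.6 after Benjamini-Hochberg adjustment, and 3 against 3 livers cannot go below 0.1.

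Mmp13, Mmp12 and Mmp27 belong to a metalloproteinase cluster on chromosome 9, and the fold changes within the cluster had both signs. In gene order, the log2 fold change was -0.54 for Mmp13, -0.28 for Mmp12, 0.56 for Mmp3, 0.20 for Mmp8, -0.09 for Mmp27 and 0.11 for Mmp7. Mmp1b, Mmp1a, Mmp10 and Mmp20, which lie among them, were not analysed here. Mmp3, stromelysin 1, is a low transcript at 12.1, 8.5 and 10.7 in control and 13.1, 13.2 and 22.6 in LKO livers, and it was the other cluster gene whose groups did not overlap, in the higher direction, as for 5.35% of all genes. It was named after its values were seen.

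The remaining metalloproteinases with Timp4 (13 of 17 listed genes in the table) had a median log2 fold change of 0.11, with 5 lower and 8 higher means and none past an unadjusted p of 0.05. Of those with a mean of at least 1 read per 1000000, the 3 with the smallest p were Mmp17 at -0.22, Mmp23 at -0.09 and Mmp11 at 0.16. Of 19 ADAM and ADAMTS proteinases, relatives of the metalloproteinases, 16 had a lower mean in LKO livers. At an unadjusted p under 0.05 by limma 2 were lower, against 2.74% of all genes. Adam19 went from 565 ± 43.8 to 429 ± 59.8 (log2 fold change -0.40, adjusted p = 0.714 by limma, SD over n = 3). Adamts2, which removes the N-terminal propeptide of procollagens, was at -0.21 and Adamts12 at -0.56, with adjusted p of 0.842 and 0.899 by limma.

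The plasminogen system makes plasmin, which opens several proenzymes of this family, and 8 of its 11 genes had a lower mean in LKO livers. Plau, the urokinase that turns plasminogen into plasmin, averaged 969 ± 41.7 in control and 749 ± 72.6 in LKO livers (log2 fold change -0.37, adjusted p = 0.548 by limma and 0.0663 by DESeq2). Anxa2, a plasminogen receptor at the cell surface, averaged 16593 ± 813 and 12173 ± 2112 (log2 fold change -0.46), and DESeq2 called it lower with an adjusted p of 0.0297, unlike limma at 0.555. Its partner S100a10 was at -0.13 (adjusted p = 0.891 by limma).

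Among 16 genes for activation, inhibition and clearance of metalloproteinases, 9 had a lower and 7 a higher mean. Cav1, caveolin 1, through which surface proteins including Mmp14 are taken up, averaged 646 ± 113 in control and 1047 ± 175 in LKO livers, and its log2 fold change of 0.70 had an adjusted p of 0.00519 by DESeq2 and 0.548 by limma. Bsg, known as the inducer EMMPRIN, was at -0.21, and Pcsk7, a furin-like convertase, was at 0.14, with adjusted p of 0.791 and 0.852 by limma. Reck, a membrane-anchored inhibitor, had counts of 276, 287 and 309 in control and 333, 332 and 338 in LKO livers. Its groups did not overlap in the higher direction, as for 5.35% of all genes. The log2 fold change of 0.20 had an adjusted p of 0.891 by limma, and Reck too was named after its values were seen.

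All 16 listed matrix substrates, which are collagens, laminins and other matrix genes such as Fn1, Eln and Dcn, had a lower mean in LKO livers. Their median log2 fold change was -0.24, and they ran from -0.61 for Col1a1 to -0.0025 for Fn1, at 99.8% of its control mean. At an unadjusted p under 0.05 by limma 8 were lower, against 2.74% of all genes. DESeq2 called 4 lower, Col1a1, Col1a2, Col3a1 and Col5a2, against 0.250% of all genes, while limma's adjusted p called none. Col1a1 averaged 13967 ± 2053 in control and 9144 ± 1564 in LKO livers (log2 fold change -0.61, adjusted p = 0.00462 by DESeq2 and 0.548 by limma). Col1a2 averaged 14055 ± 1702 and 10095 ± 1344 (-0.48, adjusted p = 0.0161 by DESeq2), Col3a1 was at -0.47 (adjusted p = 0.0247) and Col5a2 at -0.41 (adjusted p = 0.0302).

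Of 19 inducers of MMP and TIMP transcription, 16 had a lower mean and 2 were lower at an unadjusted p under 0.05 by limma, against 2.74% of all genes. None was called at the adjusted threshold by limma, edgeR or DESeq2 without a replicate block. Jun, the AP-1 subunit, averaged 4495 ± 181 in control and 3204 ± 862 in LKO livers (log2 fold change -0.52, adjusted p = 0.791 by limma). Ets1 and Ets2 were each at -0.12 (adjusted p = 0.879 and 0.927 by limma). Over the 6 lists 70 of 94 tested genes had a lower mean, against 50.4% of all genes. By limma 18 were lower and 2 higher at an unadjusted p under 0.05, against 2.74% and 2.94% of all genes, and none passed its adjusted threshold. DESeq2 called 5 lower and 1 higher, against 0.250% and 0.288% of all genes.

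**Figure D5:**
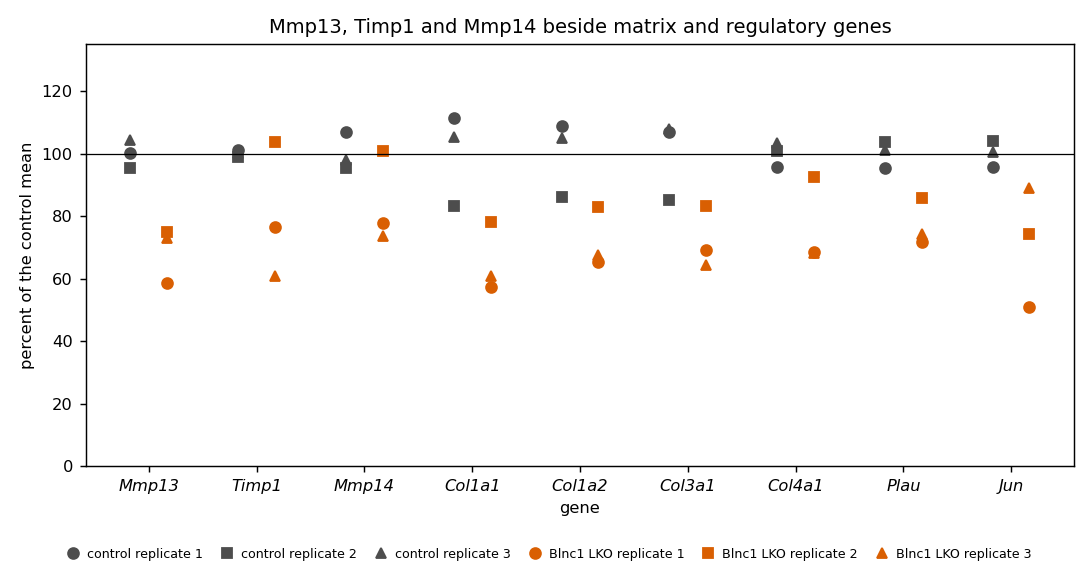
Each liver's normalized count as a percent of the control mean (line at 100) for Mmp13, Timp1, Mmp14 and 6 matrix and regulatory genes, grey for control and orange for Blnc1 LKO, with the symbol giving the replicate. For Mmp13, Col1a1 and Jun all orange points are below all grey points, while for Timp1 and Mmp14 LKO liver 2 (orange square) lies at or above the line.

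Marker genes of the cells that could supply these transcripts were summed in each liver. The 11 stellate cell and fibroblast markers gave 22364 to 23258 in the control livers and 20178, 23457 and 22376 in LKO livers 1 to 3. Of them Acta2, Rgs5 and Postn, named after their values were seen, were lower at an unadjusted p under 0.05 by limma, against 2.74% of all genes. The list's median log2 fold change was -0.02, and 4 of the 11 (Lrat, Reln, Pdgfra and Gli1) had a higher mean in LKO livers. DESeq2 called Acta2 and Rgs5 lower (adjusted p = 0.0157 and 0.0492), and limma's adjusted p called none of the 11. The 9 endothelial markers gave 34376 to 36163 in control and 32710 to 34467 in LKO livers. At an unadjusted p under 0.05 by limma 3 of them were lower, against 2.74% of all genes, and none was higher. These were Lyve1 at 67.9% of the control mean, Pecam1 at 89.2% and Cdh5 at 90.4%, also named after their values were seen. The median log2 fold change of the 9 was -0.07, and 2 of them (Stab2 and Clec4g) had a higher mean in LKO livers. None of the 9 passed the adjusted threshold by limma or DESeq2 without a replicate block. The 7 cholangiocyte markers gave 61420 to 73466 in control and 58431, 73657 and 49023 in LKO livers. Most of each sum was Spp1, also counted above as a matrix substrate. Spp1 gave 57143, 57870 and 67487 in control and 53958, 67562 and 44457 in LKO livers, so the order of the sums is mainly that of this gene. Over the 7 markers the median log2 fold change was -0.02, with 4 lower and 3 higher means. Sums of the 9 T, NK and B cell markers were 1576 to 2164 and 1509 to 2101. The 8 hepatocyte markers in the table summed to 5463162 to 6044795 in control and 5314606 to 6430794 in LKO livers, which fits the labelled tissue. Most of each hepatocyte sum was Alb (mean 4078334 in control and 4132127 in LKO livers). No marker of these lists was at 0 in any liver. The part of cell composition in the Mmp and Timp values was not tested.

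For 4 members the transcripts whose log2 values ran most nearly parallel over the 6 livers were sought among 12862 genes, as a description by Pearson's r and without a test. Timp1 was most like Ptgr1 (r = 0.996), Fgd1 (0.994), Wls (0.990) and Armcx2 (0.987). Mmp12 was most like Fmn1 (r = 0.985), St5 (0.984), Nedd4l (0.983) and Zfp90 (0.983). Mmp2 was most like Dclk2 (r = 0.987), 4833420G17Rik (0.982), Supt3 (0.980) and Gyltl1b (0.979). Timp3 was most like Grb10 (r = 0.986), Pard6g (0.985), Tbc1d19 (0.985) and Lix1l (0.984). Each r rests on 6 points, which are the same libraries for every gene. With 6 points and 12862 genes, some r near these values can occur between unrelated genes.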

How the data were processed

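PolyA-selected RNA from 6 frozen livers was sequenced after TruSeq v2 library preparation, and FastQC, STAR (mm10), HTSeq and DESeq2 are named in the study's methods or the submitters' processing notes. Their versions and the annotation were not given in the sources used here. The deposited values are a signal, gene counts that the authors divided by each library's size factor. Whole reads were recovered by dividing by the value of 1 read, and 100% of values came out whole within 0.01. Columns named WT and KO were matched by number to control and LKO samples. The table lists 23 symbols turned into calendar dates.

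The main test was limma 3.58.1 with a trend on log2(value + 1) over the 17297 genes that reached a value of 1 in 3 livers or more, with Benjamini-Hochberg adjustment and a threshold of 0.05, on the 3 control against the 3 LKO livers. A fold change on this scale understates changes of low genes. Alternatives were edgeR 4.0.16 and DESeq2 1.42.0 on recovered reads, voom, library size as the only scaling, a pseudocount of 0.1, no filter, at least 10 reads in every liver, a replicate block and each liver left out. DESeq2 gave an adjusted p for 15617 genes. Leaving out livers under DESeq2, and the count over the pathway lists under each alternative, were added after seeing the data. The fits were tried on simulated data with larger changes than those of the members, which does not show how well changes of the members' size are found. P-values measure the spread between these livers only. Levels per length used GENCODE M21 exon lengths.

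Named were the 10 members, the 3 genes of smallest unadjusted limma p in each pathway list whose mean reached 1 CPM, pathway genes past the adjusted threshold in any tool, and the 4 genes most like Mmp2, Mmp12, Timp1 and Timp3. The members and lists were chosen with earlier results of these data known, and counts over the lists are descriptions.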

Additional observations from a re-analysis of the deposited data

How the results depend on the processing

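Over all genes, 1 passed limma's adjusted threshold; 2 did without a filter, 2 by edgeR, 84 by DESeq2, 0 to 13 by limma with 1 liver left out, and 18 to 301 so by DESeq2 (18 without control liver 1, 42 without control liver 3, 57 without LKO liver 1 or 3, 102 without control liver 2 and 301 without LKO liver 2). No member passed except under DESeq2 (1, and 0 to 3 with 1 liver left out). Members lower at an unadjusted p under 0.05 numbered 2, and 1 with at least 10 reads in every liver, by edgeR or with library size as the only scaling. With 1 liver left out they numbered 1 to 5 by limma (5 without LKO liver 2, 3 without control liver 1), where 1.75% to 5.47% of all genes were lower. By DESeq2 with 1 liver left out they numbered 1 to 6, where 1.55% to 4.61% were lower. Members higher numbered 0 to 1 in those DESeq2 fits, and the share of all genes higher in them was not counted. The higher member was Mmp9, without LKO liver 1 (unadjusted p = 0.042 by DESeq2) or LKO liver 2 (0.018). Both fits kept LKO liver 3, which had the highest Mmp9 value. The pathway count of 18 lower ran from 14 to 32 by limma and 12 to 30 by DESeq2 with 1 liver left out, highest without LKO liver 2. Members whose groups did not overlap numbered 1 to 5 with 1 liver left out, where 8.60% to 13.6% of all genes did so in the lower direction. The direction turned for Mmp2 (-0.0022 by DESeq2 without LKO liver 2), Mmp9 (-0.00046 by DESeq2 without LKO liver 3), Mmp19 (0.041 by limma and 0.043 by DESeq2 without LKO liver 2; -0.16 by limma without LKO liver 1), Mmp27 (0.031 and 0.038 without control liver 1; -0.18 by limma without LKO liver 3) and Timp2 (0.0081 by DESeq2 without LKO liver 1); the cause was not tested. Of 210 alternative values for single members, 196 kept direction and side of the threshold.

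Control and LKO livers share replicate numbers, but the deviations of same-numbered livers correlated at -0.044, 0.0038 and -0.17. No liver correlated best with the liver of its own number, so the numbers were not taken as pairs. With a replicate block, 0 genes passed by limma and 57 by DESeq2, and 4 members were lower at an unadjusted p under 0.05 in either fit (Mmp12, Mmp13, Mmp14 and Timp1), against 2.67% of all genes by limma and 1.72% by DESeq2, with none past the adjusted threshold; Mmp13 had an adjusted p of 0.604 by limma and 0.118 by DESeq2. In the blocked DESeq2 fit 4 pathway genes were called lower (Anxa2, Col1a2, Col3a1 and Jun, the last with an adjusted p of 0.0262) and Cav1 higher. Of all genes with an adjusted p in that fit, 0.357% were called in either direction. The calls of Col1a1 (adjusted p = 0.9998), Col5a2 (0.179), Acta2 (0.194) and Rgs5 (0.487) were lost. Of the endothelial markers, Lyve1 was called lower in that fit (adjusted p = 0.0054 by DESeq2).

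With 3 livers a group, a log2 fold change of Mmp9 between -0.33 and 1.27, or of Timp1 between -0.73 and 0.03, lay inside the 95% interval.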
